A study of Bos taurus with 60 samples.

Results

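The miR-191 and miR-425 cluster was represented in bovine liver by 3 mature miRNAs, bta-miR-191, bta-miR-425-5p and bta-miR-425-3p, which were chosen by name among the 1030 mature miRNAs analysed here. No measured value entered that choice. Small RNA was sequenced from the livers of 60 beef steers, with 20 Angus, 20 Charolais and 20 from a crossbred herd called Kinsella Composite (KC), and 1 library per steer. The steers were castrated males kept on the same finishing diet of barley grain, barley silage and rumensin pellets, and a portion of the right liver lobe was taken at slaughter. In each breed 6 steers were labelled low-RFI and 6 high-RFI, and the other 8 carried no RFI group. RFI, or residual feed intake, is the feed an animal ate beyond the amount predicted from its growth and body weight, so that a low value marks an efficient animal. The groups had further limits as models. The study took all 20 steers of each breed from those with its highest and lowest RFI values. The 8 without an RFI group thus also came from these extremes, and the labels do not say from which end. The steers of the RFI groups were picked from the 20 partly because their miRNA profiles looked like those of the rest of the breed. The labels gave 23 sires, 7 for Angus, 5 for Charolais and 11 for KC, so that many steers were half-siblings. Of the 11 sire labels of KC, 1, carried by 1 steer, was unlike the other 22 in form and may stand for an unknown sire. Mean age at slaughter was lowest in KC and highest in Charolais, and breed and age cannot be told apart here.

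A miRNA is a short RNA that guides the Argonaute protein to messenger RNAs, mainly through pairing of its seed, bases 2 to 8. In mammals the miR-191 and miR-425 hairpins lie next to each other, are usually described as processed from the same primary transcript of the DALRD3 locus, and have been studied in cell proliferation and in liver cancer. miR-191 is abundant in many tissues and is often used as a reference small RNA. miR-425-5p and miR-425-3p are the opposite arms of 1 hairpin, of which the 5p arm is generally the more abundant strand.

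The mature sequences show how little the members have in common apart from their locus. They are written 5′ to 3′ as the study listed them, with the seed in capitals, and bta-miR-191b is added because it shares the name.
bta-miR-191: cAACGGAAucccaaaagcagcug
bta-miR-425-5p: aUGACACGaucacucccguuga
bta-miR-425-3p: aUCGGGAAugucguguccgccc
bta-miR-191b: gAACGAAAuccaagcgcagcug
The seeds of the 3 members differ, and each belongs to a different seed family. Among the 588 mature sequences listed, no other carried the seed of bta-miR-191 or of bta-miR-425-5p, and bta-miR-2403 alone shared the seed of bta-miR-425-3p. A perfect seed match in a messenger RNA would read UUCCGUU for bta-miR-191, CGUGUCA for bta-miR-425-5p and UUCCCGA for bta-miR-425-3p. All 3 seeds contain the dinucleotide CG, which was present in 93 of the 588 seeds, or 15.8%. When the miR-425 arms were laid antiparallel without gaps, 10 Watson-Crick and 3 G-U pairs formed over 19 facing bases. bta-miR-191b differed from bta-miR-191 at 7 of 22 bases in an ungapped alignment, the seed included, and no other listed sequence came within 1 mismatch of any member. Each member was counted from a single precursor.

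In the RefSeq gene table of the ARS-UCD2.0 assembly, MIR191, MIR191B and MIR425 follow each other on chromosome 22, after IMPDH2 and NDUFAF3 and before DALRD3 and WDR6. The table placed neither MIR191 nor MIR425 inside the span of a protein-coding gene. The intronic position was thus not seen in that table, and DALRD3 was the adjacent gene. The listed span of MIR191B lay within that of MIR191.

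The libraries held between 1930859 and 6759381 counts, with a median of 3720336 for Angus, 4405876 for Charolais and 5547018 for KC, and 3 counts corresponded to between 0.444 and 1.55 CPM, a count scaled to a common library total. Such floors cover counting error only, since PCR reads without molecular identifiers are not independent molecules. Of the 60 libraries, 2 stood apart from their breed, both Charolais. Over the 223 miRNAs with at least 10 counts in every steer, the root mean square distance from the breed median was 0.77 on the log2 scale for Charolais steer 7 of those without an RFI group and 0.56 for Charolais low-RFI steer 1. It was 0.48 at most for the other 58 libraries, and the median was 0.29 to 0.31 by breed. Results that rest on these libraries are given with and without them. Charolais low-RFI steer 1 had 2237959 counts, the lowest total of its breed. The sequencing pool of a library was not given in the labels, so that values within pools could not be computed.

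The markers of liver were present. miR-122, the defining miRNA of hepatocytes, lay between 5069 and 17703 CPM in the 60 steers, and the muscle miRNA miR-206 was at 0 in 57 of them. In bulk tissue, fewer cells of a type and less of a miRNA per cell cannot be told apart.

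miR-191 was the cluster's abundant product in every steer. It ranked 12th by mean count in each breed, and between 9th and 19th in single steers. Its level after TMM scaling, a correction of library totals for composition, ran from 9297 to 17376 CPM in Angus with a median of 11361. In Charolais it ran from 7900 to 22331 CPM with a median of 11619, and in KC from 9820 to 19664 CPM with a median of 12438. The ranges of the 3 breeds overlapped over most of their width, and the steer at each end of the whole range was a Charolais library that stood apart. In raw counts the mean was 42246 ± 11372 (SD, n = 20) in Angus, 51594 ± 16462 in Charolais and 69040 ± 15540 in KC, an order that the library totals share. Its share of all miRNA counts was 1.29% ± 0.141 for KC steers, 1.17% ± 0.149 for Charolais and 1.1602% ± 0.0751 for Angus.

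miR-425-5p, the main arm of the neighbouring hairpin, was present at far lower levels. Its level ran from 115 to 184 CPM in Angus with a median of 133, from 91.5 to 235 CPM in Charolais with a median of 127, and from 104 to 155 CPM in KC with a median of 126. The medians lay close together, and the Charolais steers were the most spread. In raw counts the mean was 510 ± 144 (SD, n = 20) in Angus, 577 ± 143 in Charolais and 681 ± 114 in KC. By that mean it ranked 96th in the former breeds and 100th in KC.

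miR-425-3p, the lesser arm, was low but found in every steer. Its raw count was between 14 and 47 in Angus, 16 and 60 in Charolais, and 28 and 61 in KC. Its level ran from 4.97 to 10.2 CPM in Angus with a median of 6.94, from 6.02 to 14.9 CPM in Charolais with a median of 7.60, and from 5.58 to 10.01 CPM in KC with a median of 7.93. All 3 members passed the filter of at least 1 CPM in at least 6 steers in each comparison. bta-miR-191b, by contrast, had a mean of 8.45 counts in Angus, 11.1 in Charolais and 12.9 in KC, with 3 counts or fewer in 5 steers.

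**Figure D1:**
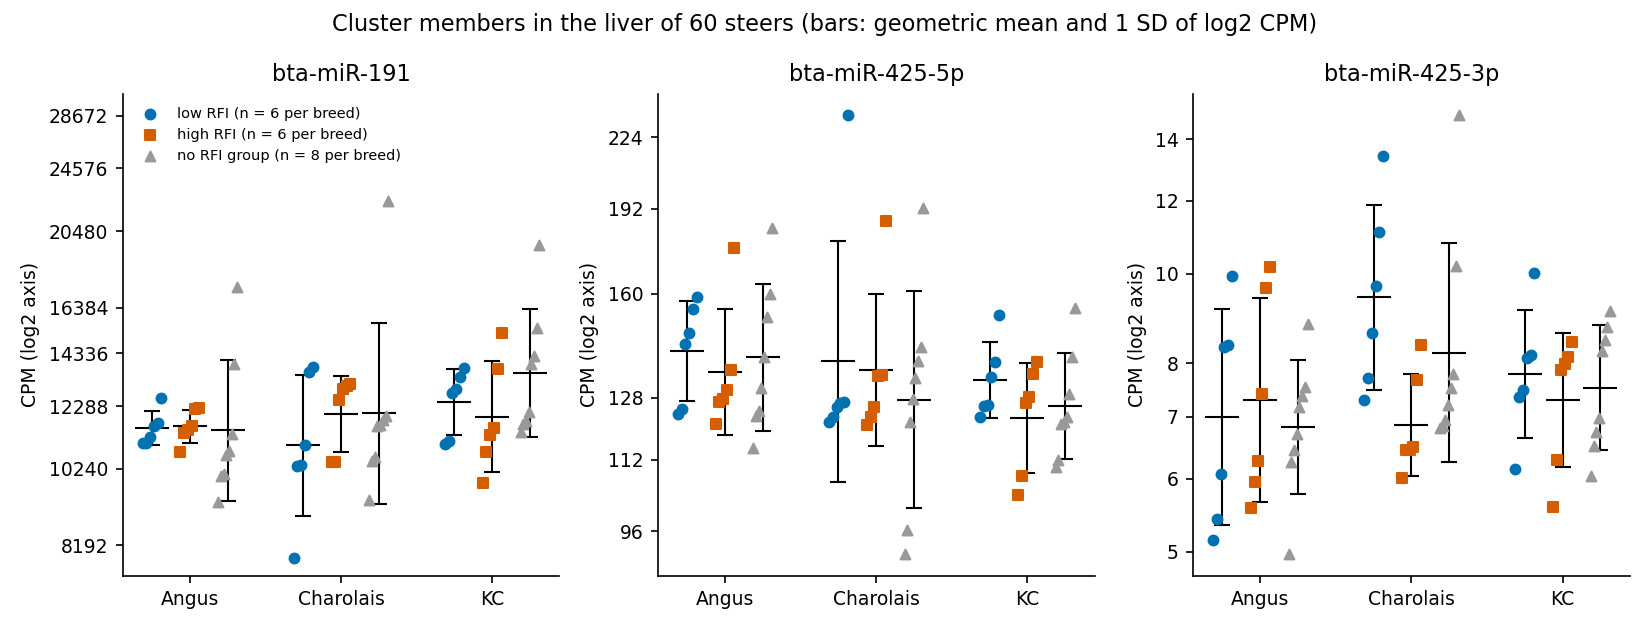
Level of bta-miR-191, bta-miR-425-5p and bta-miR-425-3p in each of the 60 steers, in CPM after TMM scaling on a log2 axis, by breed and RFI group. Points are steers and bars are the geometric mean with 1 SD of log2 CPM. The groups overlap in each panel, and the highest values of miR-191 (22331 CPM), miR-425-5p (235 CPM) and miR-425-3p (14.9 CPM) are Charolais steers.

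The members differed in how much of their spread exceeded counting error. Within breeds, the SD of log2 CPM was 0.24 for miR-191, 0.23 for miR-425-5p and 0.30 for miR-425-3p. Counting error alone would give 0.0066, 0.0619 and 0.262, which is 0.0748%, 7.39% and 76.7% of the respective variance. The spread of miR-191 and miR-425-5p was thus mostly beyond counting, while differences of miR-425-3p between single steers were near the limit that its depth sets. As a reference RNA, miR-191 was not among the steadiest of the abundant miRNAs after TMM scaling. Of the 20 most abundant miRNAs, 14 had a smaller SD within breeds, from 0.12 for miR-30e-5p upwards. Among the 223 miRNAs with at least 10 counts in every steer, 85 were steadier than miR-191 and 75 steadier than miR-425-5p, and the median SD was 0.29. After TMM scaling the mean of miR-191 was 11619 ± 1681 CPM (SD, n = 20) in Angus. It was 11958 ± 2861 CPM in Charolais and 12872 ± 2211 CPM in KC. Its share of all counts, given above, had a smaller SD relative to its mean in each breed. The highest Angus level, 17376 CPM, came from 43085 of 3696963 counts with a TMM factor of 0.671. The part of the TMM factors in the spread was not tested. Steadiness was not ranked on shares.

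The first comparison asked whether efficient and inefficient steers of a breed differed in these miRNAs. None of the 3 members met the study's threshold, an unadjusted p under 0.05 with a fold change over 1.5, in any breed when the groups were compared directly. The background share of miRNAs that did so was 2.41% in Angus (9 of 373), 1.88% in Charolais (7 of 373) and 1.82% in KC (7 of 385), and 0.704% (3 of 426) in the fit of the 36 steers across breeds. In these direct comparisons no miRNA at all passed a Benjamini-Hochberg adjusted p of 0.05 by edgeR's quasi-likelihood test. An unadjusted p under 0.05 was reached by 14, 19 and 14 in Angus, Charolais and KC. In KC the likelihood-ratio test and DESeq2 each called 1 miRNA at the adjusted threshold. The study, which used the likelihood-ratio test, reported miRNAs past its stricter corrected threshold in each breed, none of them a member. With a term for each sire, miR-425-5p and miR-425-3p met the threshold in Charolais, as did 12.9% of miRNAs (48 of 373). Their log2 fold changes were then 0.72 (unadjusted p = 0.00731, adjusted p = 0.170 in edgeR) and 1.01 (unadjusted p = 0.0137, adjusted p = 0.177), and miR-191 was at -0.54 (unadjusted p = 0.0172, adjusted p = 0.177). These values rest on 1 animal, because only 1 of the 5 Charolais sires had steers in both RFI groups, with 4 high-RFI steers and a single low-RFI steer. That steer was low-RFI steer 1, a library that stood apart, and without it no sire had both groups and such a fit could not be made. RFI group and sire can thus hardly be told apart in Charolais.

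For miR-191 the RFI groups overlapped in each breed. In Angus the low-RFI steers ran from 11051 to 12606 CPM (median 11427) and the high-RFI steers from 10747 to 12241 CPM (median 11533). In Charolais the low-RFI steers ran from 7900 to 13777 CPM (median 10680) and the high-RFI steers from 10439 to 13113 CPM (median 12704). In KC the low-RFI steers ran from 11024 to 13719 CPM (median 12851) and the high-RFI steers from 9820 to 15213 CPM (median 11419). The low-RFI median was thus below the high-RFI median in Angus and Charolais and above it in KC, and no group lay apart from the other. The log2 fold change, low against high RFI, was 0.02 (SE 0.06) in Angus, -0.10 (SE 0.13) in Charolais and 0.09 (SE 0.09) in KC, with adjusted p-values of 0.974, 0.987 and 0.995 in edgeR. Its 95% intervals were -0.10 to 0.15, -0.37 to 0.16 and -0.11 to 0.29. The Charolais value was 0.01 without low-RFI steer 1.

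For miR-425-5p the picture was alike. Angus low-RFI steers ran from 124 to 159 CPM (median 145) and high-RFI steers from 121 to 176 CPM (median 129). In Charolais, 5 of the 6 low-RFI steers lay within 121 to 127 CPM and low-RFI steer 1 stood at 235 CPM, while the high-RFI steers ran from 121 to 187 CPM. KC low-RFI steers ran from 123 to 153 CPM (median 130) and high-RFI steers from 104 to 138 CPM (median 127). The log2 fold change was 0.09 (SE 0.11), 0.07 (SE 0.17) and 0.14 (SE 0.10) in Angus, Charolais and KC, with adjusted p-values of 0.969, 0.998 and 0.966 in edgeR. In Charolais the direction turned without low-RFI steer 1, where the log2 fold change was -0.09.

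The largest RFI difference of the cluster in these fits was that of miR-425-3p in Charolais. The 6 low-RFI steers had 7.30, 7.71, 8.64, 9.71, 11.1 and 13.4 CPM, and the 6 high-RFI steers 6.02, 6.44, 6.45, 6.50, 7.68 and 8.38 CPM. The median of the high-RFI steers was exceeded by all 6 low-RFI steers, and their highest value by 4, so that the groups overlapped at their edges. The log2 fold change was 0.48 (SE 0.19, 95% interval 0.08 to 0.88) with an unadjusted p of 0.0207 in edgeR, the 5th smallest of the 373, and an adjusted p of 0.752. Over the alternative settings run for it the adjusted p was between 0.177 and 0.886. Without low-RFI steer 1, which had the highest level, the log2 fold change was 0.41 (unadjusted p = 0.0354, adjusted p = 0.877 in edgeR). These levels rest on 26 to 46 counts per steer. In Angus the low-RFI steers ran from 5.14 to 9.94 CPM and the high-RFI steers from 5.58 to 10.2 CPM, with a log2 fold change of -0.00 (SE 0.23). In KC they ran from 6.14 to 10.01 CPM and from 5.58 to 8.43 CPM, with a log2 fold change of 0.13 (SE 0.15), and the adjusted p-values in edgeR were 0.997 and 0.995.

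Across breeds, the log2 fold change between low and high RFI was -0.03 (SE 0.06) for miR-191, 0.07 (SE 0.07) for miR-425-5p and 0.17 (SE 0.11) for miR-425-3p in the fit of 36 steers. The unadjusted p-values in edgeR were 0.646, 0.341 and 0.106, and the adjusted ones 0.978, 0.978 and 0.956. The interaction of RFI group and breed, which tests whether the difference varied between breeds, gave unadjusted p-values of 0.452, 0.913 and 0.158 and an adjusted p of 0.994 for each member. Of the 426 miRNAs, 0.0% passed this test at an adjusted p of 0.05 in edgeR's quasi-likelihood test, 16 had an unadjusted p under 0.05, and the likelihood-ratio test and DESeq2 each called 1.

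**Figure D2:**
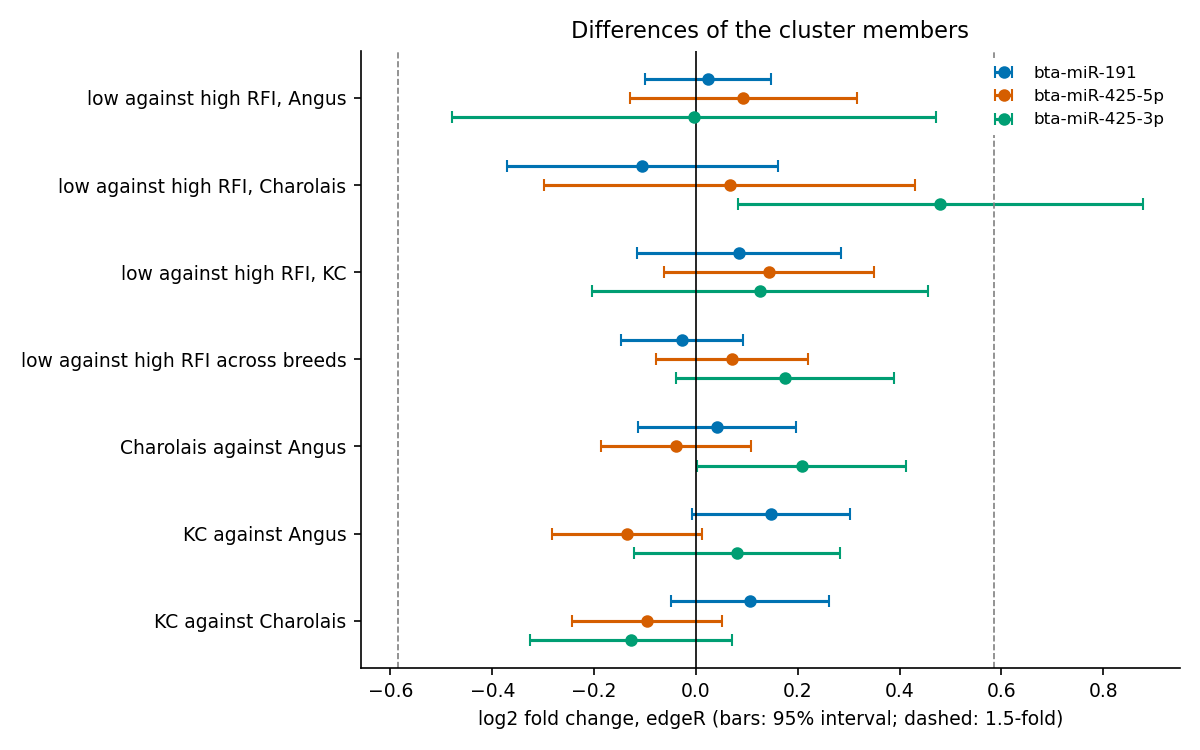
Log2 fold change of the 3 members in the 4 comparisons of low with high RFI and the 3 comparisons of breeds, from edgeR, with 95% intervals as bars and a fold change of 1.5 as dashed lines. Most intervals include 0. Those of miR-425-3p in Charolais low against high RFI (0.08 to 0.88) and in Charolais against Angus do not, and neither difference passed after adjustment.

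Between breeds, no member passed an adjusted p of 0.05 in edgeR over the 60 steers. The share of miRNAs that passed was 1.35% (6 of 443) for Charolais against Angus, 10.8% (48 of 443) for KC against Angus and 16.3% (72 of 443) for KC against Charolais. The fold changes of miR-191 and miR-425-5p between KC and Angus had opposite signs. The log2 fold change of miR-191, KC against Angus, was 0.15 (SE 0.08, 95% interval -0.01 to 0.30) with an adjusted p of 0.226, and that of miR-425-5p was -0.14 (SE 0.07, -0.28 to 0.01) with an adjusted p of 0.253. With library totals in place of TMM, which leaves the composition uncorrected, miR-191 was higher in KC than in Angus by a log2 fold change of 0.15 (adjusted p = 0.0419 in edgeR) and than in Charolais by 0.14 (adjusted p = 0.0396). Over its other alternatives these adjusted p-values reached 0.680 and 0.874. For KC against Charolais the values with TMM were 0.11 for miR-191, -0.10 for miR-425-5p and -0.13 for miR-425-3p, with adjusted p-values in edgeR of 0.421, 0.440 and 0.446.

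Between Charolais and Angus no difference in the main products was detected. The log2 fold change was 0.04 (SE 0.08) for miR-191 and -0.04 (SE 0.07) for miR-425-5p, with 95% intervals of -0.11 to 0.20 and -0.19 to 0.11. miR-425-3p was at a mean of 8.38 ± 2.39 CPM (SD, n = 20) in Charolais against 7.18 ± 1.59 CPM in Angus and 7.62 ± 1.15 CPM in KC. The log2 fold change of Charolais against Angus was 0.21 (SE 0.10), with an unadjusted p of 0.0473 and an adjusted p of 0.276 in edgeR. Without the 2 Charolais libraries that stood apart it was 0.18, with an adjusted p of 0.377. The steers are half-siblings in part, and these p-values measure the spread between steers as if they were unrelated.

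The ratio of 2 members within a library needs no scaling between libraries. There were 88.1 reads of miR-191 per read of miR-425-5p in the median steer. The ratio ran from 61.5 to 124 in Angus (median 81.1), from 33.7 to 232 in Charolais (median 87.4) and from 76.7 to 162 in KC (median 95.7). Both extremes of the 60 steers were the Charolais libraries that stood apart. KC had a geometric mean of 100.2, Charolais of 87.8 and Angus of 82.9. The geometric mean in KC was 1.21 times that in Angus, a log2 difference of 0.27 (SE 0.09), with a two-sided permutation p of 0.00446 and a Benjamini-Hochberg p of 0.0535 over the 12 ratio comparisons. The difference thus missed the adjusted threshold of 0.05. Of 20 KC steers 16 were above the Angus median. So were 16 of 20 Charolais steers, whose log2 difference from Angus was 0.08 (permutation p = 0.559). The KC and Angus difference was 0.20 among low-RFI steers (exact permutation p = 0.0909), 0.18 among high-RFI steers (exact p = 0.253) and 0.39 among steers without an RFI group (exact p = 0.0527). KC libraries were also deeper, and within breeds the log2 ratio and the log2 library total had a Pearson r of 0.42 over 60 steers (permutation p = 0.00142, adjusted p = 0.00738 over 26 relations), a Spearman rho of 0.38 (adjusted permutation p = 0.0145) and an r of 0.24 without the 2 steers farthest from the median ratio. Without the 2 libraries that stood apart that r was 0.24 (adjusted permutation p = 0.168) and the rho 0.32 (adjusted permutation p = 0.0543). With every library thinned to a common total, or with a pseudocount of 1, the KC and Angus difference was again 0.27 (adjusted permutation p between 0.0526 and 0.0593). The part of depth in the breed difference was not tested further. No difference in this ratio between RFI groups was detected, with values of -0.07, -0.16 and -0.05 on the log2 scale in Angus, Charolais and KC and exact permutation p-values of 0.496, 0.639 and 0.714.

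The ratio of the miR-425 arms was 17.1 reads of the 5p arm per read of the 3p arm in the median steer. It ran from 12.5 to 29.5 in Angus (median 20.3), from 11.4 to 28.8 in Charolais (median 16.1) and from 13.2 to 22.9 in KC (median 16.6). In Charolais the low-RFI steers had ratios of 11.4, 13.02, 14.2, 16.3, 16.6 and 17.5, against 15.7, 16, 19.4, 20.4, 20.9 and 28.8 in high-RFI steers. The 6 low-RFI ratios all lay under the median of the high-RFI ones, and 3 of them were within the high-RFI range. The 8 Charolais steers without an RFI group had a median of 14.5, near the 15.2 of the low-RFI steers and below the 19.9 of the high-RFI steers. The log2 difference was -0.43 (SE 0.16), with an exact two-sided permutation p of 0.0216, for which 0.00216 is the smallest value the design allows, and a Benjamini-Hochberg p of 0.0719. It ran from -0.49 to -0.32 when each steer was left out. In Angus the difference was 0.12 (SE 0.21) and in KC 0.02 (SE 0.13), with exact permutation p-values of 0.580 and 0.848. Between breeds, the log2 difference of the arm ratio was -0.26 for Charolais against Angus (permutation p = 0.0225) and -0.22 for KC against Angus (permutation p = 0.0240), each with a Benjamini-Hochberg p of 0.0719. Within RFI strata the Charolais and Angus difference did not keep its direction. It was -0.45 among low-RFI steers (exact permutation p = 0.0498) and -0.39 among steers without an RFI group (exact p = 0.0420), but 0.10 among high-RFI steers (exact p = 0.610). The KC and Angus difference was -0.23, -0.14 and -0.28 among low-RFI steers, high-RFI steers and steers without a group, with exact permutation p-values of 0.275, 0.422 and 0.109. None of the 12 ratio comparisons passed after adjustment. The SD of the log2 arm ratio over 60 steers was 0.33, beside 0.27 from counting error alone.

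**Figure D3:**
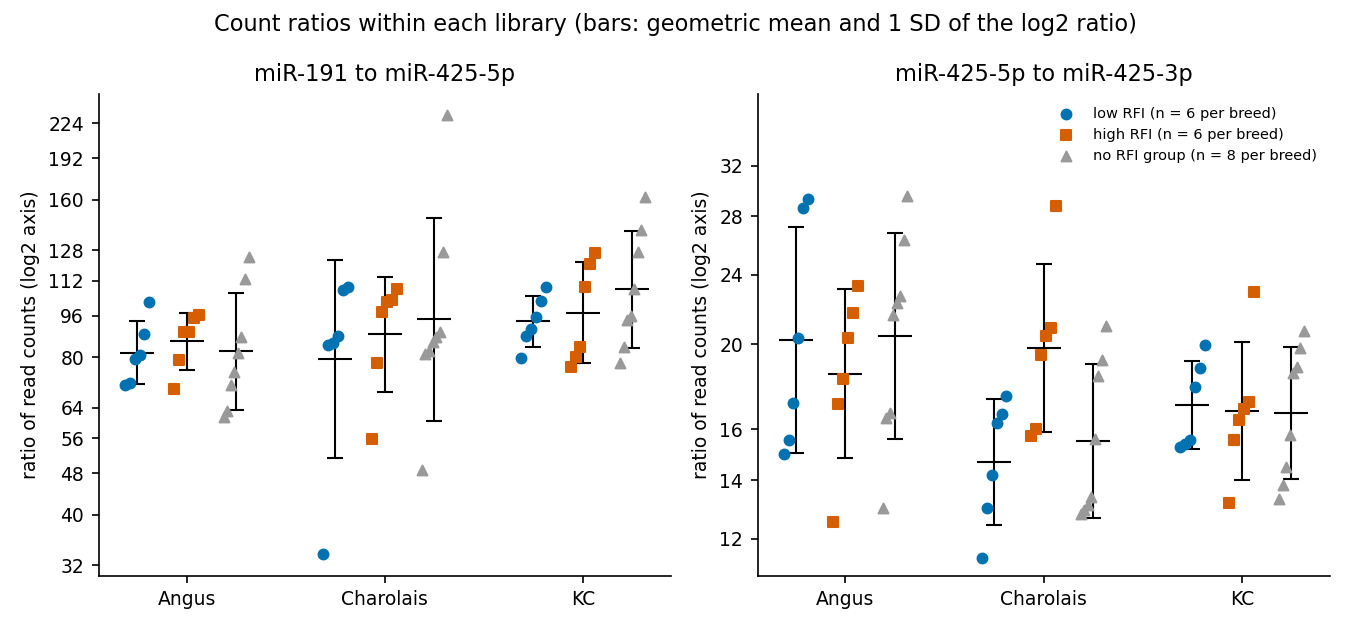
Reads of miR-191 per read of miR-425-5p, and reads of miR-425-5p per read of miR-425-3p, in each of the 60 steers on log2 axes, by breed and RFI group. Points are steers and bars are the geometric mean with 1 SD of the log2 ratio. The lowest and highest ratio of miR-191 to miR-425-5p (33.7 and 232) are single Charolais steers. In the ratio of the arms, Charolais low-RFI steers (median 15.2) and those without an RFI group (14.5) have lower medians than the high-RFI steers (19.9).

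Since the members are described as products of 1 transcript, their levels were compared across steers. miR-191 and miR-425-5p did not rise together. On log2 CPM with breed means subtracted, their Pearson r was -0.41 over 60 steers (permutation p = 0.00466, Benjamini-Hochberg p = 0.0280 over 12 relations) and their Spearman rho -0.27 (permutation p = 0.0369, adjusted p = 0.443). The r was -0.35 without the 2 steers farthest from the median of miR-191 (adjusted p = 0.132). It rested on the 2 Charolais libraries that stood apart, and without them it was -0.19 (permutation p = 0.134, adjusted p = 0.361). Charolais low-RFI steer 1 had 7900 CPM of miR-191 and 235 CPM of miR-425-5p, the lowest and the highest value of all 60 steers. Charolais steer 7 of those without an RFI group had 22331 and 96.4 CPM, the highest miR-191 of all steers after TMM scaling. As a share of all counts, its miR-191 was at 1.53%, below the highest KC value of 1.56%.

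Within breeds, the r of miR-191 and miR-425-5p was 0.01 in Angus (permutation p = 0.961), -0.66 in Charolais (permutation p = 0.00335) and -0.24 in KC (permutation p = 0.303). In Charolais it was -0.39 without the 2 libraries (permutation p = 0.113). miR-191 and miR-425-3p had an r of -0.13 over 60 steers (permutation p = 0.353), with -0.09 in Angus, -0.33 in Charolais and 0.25 in KC. With every library thinned to 1930856 counts it was -0.40 over 60 steers (adjusted permutation p = 0.0104), and without the 2 libraries that stood apart, on all counts, -0.01.

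The arms of the miR-425 hairpin had a weak positive relation that rested on few steers. The r of miR-425-5p and miR-425-3p was 0.34 over 60 steers (permutation p = 0.0151, adjusted p = 0.0508), with a rho of 0.16 (permutation p = 0.231), and 0.09 without the 2 steers farthest from the median of miR-425-5p. By breed the r was 0.53 in Charolais, 0.36 in KC and -0.00 in Angus, and the Charolais value became -0.063 without the 2 steers of that breed farthest from its median. Without the 2 libraries that stood apart it was 0.22 over 58 steers (permutation p = 0.116, adjusted p = 0.361). On library totals in place of TMM the r over 60 steers was 0.57 (permutation p = 2e-05, adjusted p = 0.00024), so that the relation of the arms depended on the scaling. The counting error of miR-425-3p, given above, limits how close such a relation could be at this depth.

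**Figure D4:**
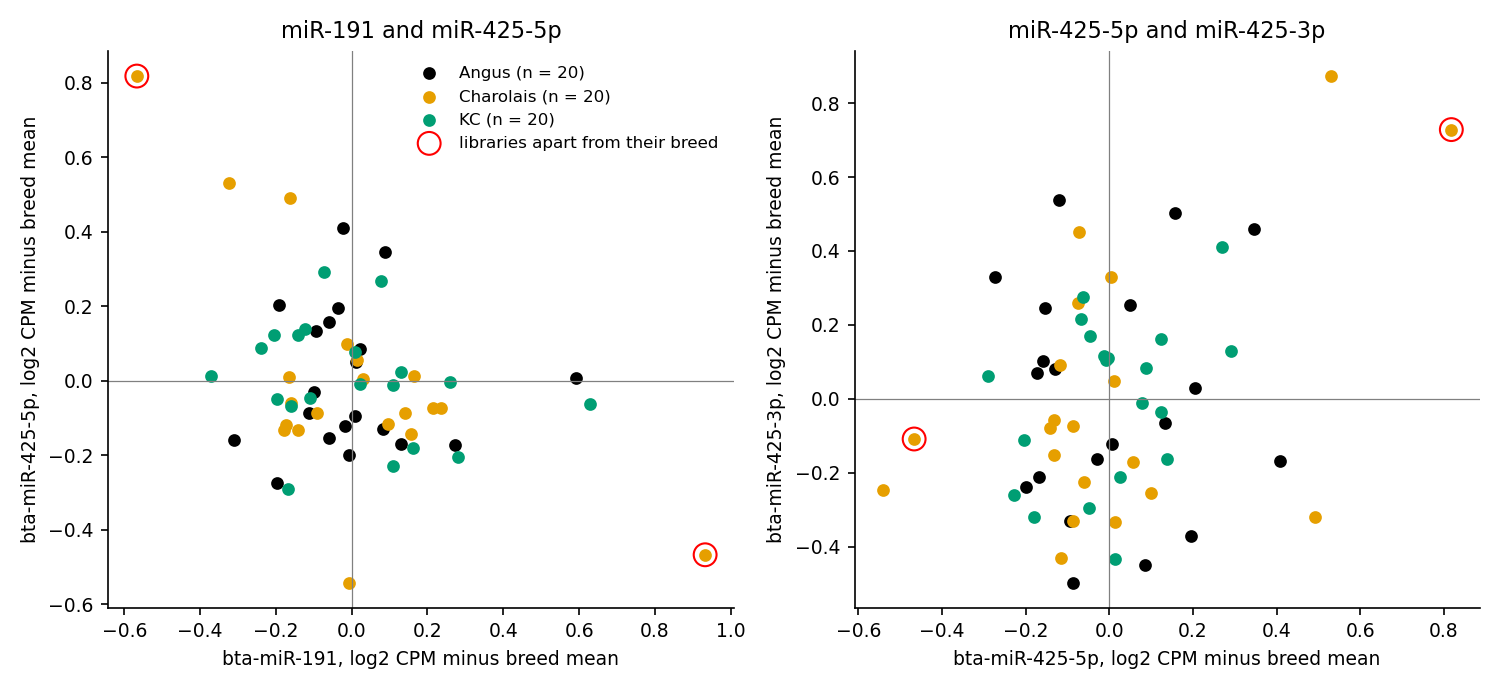
Log2 CPM minus the breed mean for miR-425-5p against miR-191 (left) and for miR-425-3p against miR-425-5p (right), with 60 steers as points coloured by breed and the 2 libraries that stood apart circled. On the left the circled Charolais steers lie at opposite ends, and the r of -0.41 becomes -0.19 without them.

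The miRNAs most like each member were found among all others by Spearman rho over the 60 steers with breed means subtracted, as a description, since all values of a library share its depth and scaling. miR-191 was most like miR-374a (rho 0.74), miR-2285k (0.67), miR-10a (0.67), miR-24-3p (0.61) and miR-100 (0.61). Among its 222 partners miR-425-5p came 194th and miR-425-3p 137th. miR-425-5p was most like miR-423-3p (0.67), miR-93 (0.66) and miR-423-5p (0.66), with miR-425-3p 70th and miR-191 186th. miR-425-3p, at its low counts, was most like miR-3613a (0.42), the hepatocyte miRNA miR-122 (0.38) and miR-32 (0.36) among 443, with miR-425-5p 58th and miR-191 318th. Without the 2 libraries that stood apart, miR-191 and miR-425-5p kept the same leading partners, and the rho of miR-191 with miR-374a was 0.72 and that of miR-425-5p with miR-423-3p 0.65.

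**Figure D5:**
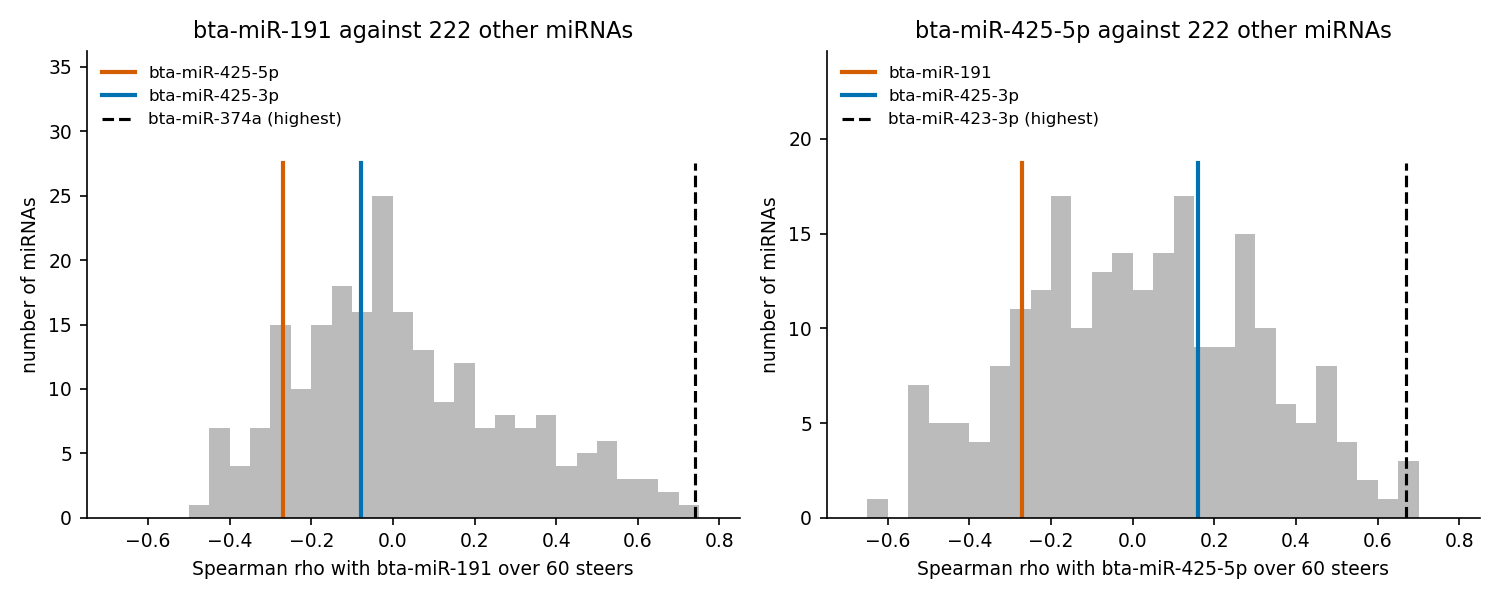
Spearman rho over 60 steers, breed means subtracted, of bta-miR-191 (left) and bta-miR-425-5p (right) with each of 222 other miRNAs, as histograms with the number of miRNAs on the vertical axis. Lines mark the other cluster members and, dashed, the miRNA with the highest rho. miR-425-5p lies at -0.27 on the left, in the lower part of the distribution, and miR-374a at 0.74.

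Other miRNAs that derive from common transcripts gave a scale for these values. Their r over the same 60 steers, as descriptions, was 0.56 for the arms miR-126-3p and miR-126-5p, 0.53 for miR-93 and miR-106b, 0.47 for miR-221 and miR-222, 0.43 for miR-143 and miR-145, and 0.41 for miR-15b and miR-16b. It was lower for miR-192 and miR-194 (0.14), miR-93 and miR-25 (0.10), and miR-23b-3p and miR-27b (0.10), and negative for miR-25 and miR-106b (-0.09). The r of -0.41 for miR-191 and miR-425-5p was below all 9 of these. Without the 2 libraries that stood apart it was -0.19, beside -0.07 to 0.53 for the 9 other pairs over the same 58 steers. The SD of the log2 ratio within breeds was 0.39 for miR-191 and miR-425-5p, beside 0.14 to 0.40 for the 9 other pairs. Whether the pairs differ from each other was not tested.

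miR-191 and miR-425-5p also moved in opposite ways with other RNAs of the same libraries. The summed level of 5 miRNAs typical of mesenchymal cells (miR-143, miR-145, miR-199a-3p, miR-199a-5p and miR-214), of which miR-143 made up nearly all, ran from 116112 to 305864 CPM in Angus, 135371 to 376958 in Charolais and 122762 to 257375 in KC. With breed means subtracted it had an r of 0.73 with miR-191 (permutation p = 1e-05, the smallest the permutations can give, adjusted p = 0.00026 over 26 relations, rho 0.54) and of -0.49 with miR-425-5p (permutation p = 0.00036, adjusted p = 0.00312, rho -0.51). Without the 2 steers farthest from the median of the member, the r was 0.59 and -0.45, and without the 2 libraries that stood apart 0.62 (adjusted permutation p = 0.00026) and -0.39 (adjusted permutation p = 0.0141). The highest of the 20 Charolais sums, 376958 CPM, and the lowest, 135371 CPM, were those of the 2 libraries that stood apart. The list did not move as a whole. Over all steers with breed means subtracted, the rho with miR-191 was 0.55 for miR-143 and 0.49 for miR-145. It was 0.21 for miR-214, 0.10 for miR-199a-5p and -0.38 for miR-199a-3p. For miR-425-5p, in the same order, the rho was -0.51, -0.55, -0.23, -0.24 and 0.12. The relations of the sum thus describe mainly miR-143 and do not hold for each miRNA of the list. The part of these miRNAs in the relation of the cluster members was not tested. Both sides of each relation were scaled by the TMM factor of the same library, which was 0.685 for Charolais steer 7 of those without an RFI group. The permutation p-values do not account for this shared factor, and the relations were not computed on library totals.

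The 3 erythroid miRNAs (miR-486, miR-451 and miR-144) were all detected in every steer, with sums from 3392 to 13646 CPM. Their median levels were 6666, 585 and 23.7 CPM, so that miR-486 made up most of the sum. This sum had an r of 0.44 with miR-191 (permutation p = 0.00046, adjusted p = 0.00312, rho 0.42) and of -0.17 with miR-425-5p (adjusted permutation p = 0.433). Taken singly, the rho with miR-191 was 0.43 for miR-486, 0.31 for miR-451 and 0.09 for miR-144. The library total had an r of 0.46 with miR-191 (permutation p = 0.00048, adjusted p = 0.00312, rho 0.45) and of -0.24 with miR-425-5p (adjusted permutation p = 0.191). The hepatocyte sum of miR-122 and miR-885 ran from 5094 to 17718 CPM, nearly all of it miR-122. That sum had an r of 0.38 with miR-425-3p (permutation p = 0.00444, adjusted p = 0.0169, rho 0.38), and 0.29 without the 2 steers farthest from the median of miR-425-3p. Without the 2 libraries that stood apart these relations of miR-191 had an r of 0.36 with the erythroid sum (adjusted permutation p = 0.0338) and 0.34 with the library total (adjusted permutation p = 0.0363), and that of miR-425-3p with the hepatocyte sum 0.41 (adjusted permutation p = 0.0141). miR-425-5p, at an r of 0.26 with the hepatocyte sum over 60 steers (adjusted permutation p = 0.191), had an r of 0.38 over these 58 (adjusted permutation p = 0.0204). Its rho over 60 steers was 0.31 with miR-122 and 0.05 with miR-885. No member passed an adjusted p of 0.05 with the sum of 6 leukocyte miRNAs, of 2 endothelial or of 3 muscle miRNAs, where r was between -0.12 and 0.24 over 60 steers and between -0.15 and 0.27 over 58. Most of the leukocyte sum was miR-142-5p, and most of the endothelial sum miR-126-5p. Taken singly over 60 steers, the leukocyte rho with miR-191 ran from -0.27 for miR-150 to 0.43 for miR-146b. It was -0.39 for miR-126-3p and -0.06 for miR-126-5p. For miR-425-5p, in the same order, the rho was 0.33, -0.30, 0.27 and 0.12. These single values were not tested. The part of these lists, of depth and of the shared TMM scaling in any result above was not tested.

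Sires with at least 4 steers allowed a view of families. In the largest Charolais family, of 8 steers, miR-191 was at 10772 ± 1706 CPM (SD) and miR-425-5p at 158 ± 41.04 CPM, and in the next, of 4 steers, at 14564 ± 5367 and 121 ± 17.7 CPM. Each of these families held 1 of the libraries that stood apart. In the largest KC family, of 8 steers, miR-191 was at 13014 ± 1673 CPM and miR-425-5p at 127 ± 15.3 CPM, and in the largest Angus family, of 6 steers, at 11551 ± 1588 and 125 ± 3.57 CPM. With sire means subtracted, over 49 steers of 12 sires, the r of miR-191 and miR-425-5p was -0.38 (permutation p = 0.0251, adjusted p = 0.0393 over 3 relations). Without the libraries that stood apart it was -0.14 over 47 steers (permutation p = 0.434, adjusted p = 0.434).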

How the data were processed

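Small RNA libraries were made from total RNA of 60 livers, 1 per steer, with the TruSeq Small RNA kit. The authors deposited raw read counts per mature miRNA and precursor. Before that they demultiplexed the reads with bcl2fastq 2.17.1.14, checked them with FastQC 0.11.7, trimmed adapters with cutadapt 1.16, selected reads by length, removed reads of other small RNA classes, aligned the remainder to the bovine UMD3.1 assembly with Bowtie 1.1.1 and counted miRBase miRNAs with miRDeep2. Reads that match several precursors can be counted more than once there, so counts of 1 miRNA were averaged over its precursors. The 3 members have 1 precursor each. A further 52 precursor pairs, of 30 miRNAs, were listed for 1 breed only. Totals ran from 1930859 to 6759381 counts, and no 2 libraries were identical.

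Groups were taken from the labels. Differences were tested with the quasi-likelihood F test of edgeR 4.0.16 under R 4.3.3, after TMM scaling, on every miRNA that reached 1 CPM in 6 or more steers, and p-values were adjusted by the Benjamini-Hochberg method over all miRNAs tested. RFI groups were fitted within each breed and across breeds, and breeds over 60 steers. A miRNA was called for RFI at an unadjusted p under 0.05 with a fold change over 1.5, and for breed or interaction at an adjusted p under 0.05. Ratios were compared as log2((a + 0.5)/(b + 0.5)) by two-sided permutation tests, exact over 924 relabelings between RFI groups and with 100000 permutations between breeds. Correlations used log2 CPM with a prior count of 0.5 and 100000 permutations within breeds (numpy 2.4.6, scipy 1.17.1, pandas 2.3.3 and Python 3.11.15). The miRNAs most like a member were named by the highest Spearman rho, 5 for miR-191 and 3 for each miR-425 arm, among miRNAs with at least 10 counts in every steer, or, for miR-425-3p, among those that passed the CPM filter in the breed comparison. The fits were tested on simulated data before use. Alternatives were other scaling, filters, tools (DESeq2 1.42.0, edgeR's likelihood-ratio test), precursor handling, thinning, pseudocounts, sire as a block and leaving out steers. Leaving out the 2 libraries that stood apart, in each place where this was done, was chosen after seeing the data. The members and lists were chosen with earlier results of these data known. p-values measure the spread between steers, some of them half-siblings. Intervals cover counting error only where they are given for counts.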

Additional observations from a re-analysis of the deposited data

Results flagged for a closer look

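In 45 groups of 6 or 8 steers, 7 values lay farther from their neighbours than Dixon's 95% critical value allows. Chance gives about 1 in 20 groups, and the tests are not independent, since some steers and measures recur.

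Of the 7 values, 4 belong to the 2 Charolais libraries that stood apart. Steer 7 of those without an RFI group had 22331 CPM of miR-191, beside 11937 CPM for the next steer, and 232 reads of miR-191 per read of miR-425-5p, beside 127. The CPM is after TMM scaling, with a factor of 0.685 for this library. As a share of all counts its miR-191 was 1.53%, and the flag was not computed on shares. Low-RFI steer 1 had 235 CPM of miR-425-5p, beside 127 CPM for the next steer, and a ratio of 33.7, beside 84.5.

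miR-425-5p also stood high in 2 high-RFI steers, at 176 CPM in Angus steer 3 (next 136 CPM) and at 187 CPM in Charolais steer 3 (next 134 CPM). miR-425-3p was at 14.9 CPM in Charolais steer 1 of those without an RFI group (next 10.2 CPM). Causes were not tested.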

How the results depend on the processing

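Of 1270 alternative values, 1180 kept their direction and their side of the threshold, or stayed within 1.5 times for a count, and 31 changed sign. For the members' fold changes 812 of 831 were kept. In no alternative did a member pass an adjusted p of 0.05 in an RFI comparison. Unless a cause is given, the cause of a change was not tested.

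For miR-191 in Angus, low against high RFI, the log2 fold change was -0.0053 with every miRNA that had any count and -0.0026 with precursor counts summed, and that of miR-425-3p was 0.012 with library totals only. The miR-425-5p difference of Charolais against Angus was 0.0015 on thinned counts and 0.038 in the 36 steers with RFI group as a covariate. With library totals only, miR-191 was higher in KC by 0.15 against Angus and 0.14 against Charolais, both past the threshold. With each steer left out, miR-191 ran from -0.026 to 0.045 in Angus and -0.19 to 0.013 in Charolais for RFI, and from -0.013 to 0.10 for Charolais against Angus. miR-425-3p ran from -0.12 to 0.075 in Angus, and miR-425-5p from -0.094 to 0.17 in Charolais.

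The ratio of miR-425-5p to miR-425-3p, low against high RFI, was -0.019 in Angus and -0.30 in KC on thinned counts, and from -0.045 to 0.11 in KC with each steer left out. The ratio of miR-191 to miR-425-5p in Charolais was 0.088 without the libraries that stood apart and ran from -0.29 to 0.088 with each steer left out, and in KC from -0.12 to 0.021.

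The r of miR-425-5p and miR-425-3p over all steers passed the adjusted threshold with library totals only (0.57), on thinned counts (0.35) and with a prior count of 2 (0.35). It also passed with sire means subtracted (0.42 over 49 steers), where p was adjusted over 3 relations. There it was 0.30 without the libraries that stood apart (adjusted permutation p = 0.279). With library totals the r of the arms was 0.69 in Charolais, 0.55 in KC and 0.36 in Angus. In Charolais it was 0.57 on thinned counts, 0.53 with a prior count of 2 and -0.063 without the 2 farthest steers. The r of miR-191 and miR-425-3p was -0.40 over all steers, -0.64 in Charolais and -0.16 in KC on thinned counts, and -0.17 in KC without the 2 farthest steers. The r of miR-191 and miR-425-5p no longer passed without the 2 farthest steers (-0.35) or the libraries that stood apart (-0.19, or -0.14 with sire means subtracted), with -0.39 in Charolais under each, and was -0.19 in Angus on thinned counts.

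Counts of miRNAs called moved with the filter and with the sire block. For low against high RFI they were 20, 17 and 15 in Angus, Charolais and KC with every miRNA that had any count, and 1, 1 and 4 with at least 10 counts in every steer. With sire as a block they were 48 in Charolais and 14 in KC, on 6 and 2 residual degrees of freedom, and in each of these breeds 1 sire, with 1 low-RFI steer, had both groups. The block moved miR-425-5p from 0.14 to 0.34 and miR-425-3p from 0.13 to 0.44 in KC, neither past the threshold, and the Charolais members as given above. The blocked Charolais fit without low-RFI steer 1, chosen after seeing the data, could not be made. With each steer left out they ran from 5 to 11, 5 to 10 and 3 to 13. The interaction called 1 miRNA by the likelihood-ratio test and 1 by DESeq2. Charolais against Angus gave 14 by DESeq2, 11 with precursors summed, 11 without pairs listed for 1 breed only, 2 in the 36 steers, and 5 to 15 with each steer left out. KC against Angus gave 24 in the 36 steers and 30 without those pairs, and KC against Charolais 44 with at least 10 counts. No paired analysis was possible because replicate numbers in these groups only name steers. Depth limits miR-425-3p, whose spread is mostly counting error.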
